A study of Mus musculus with 4 samples.

Results

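The RNA of 9 genes that fill, empty and drain the calcium stores of a cell was followed in lung ILC2s, the group 2 innate lymphoid cells that release type 2 cytokines without an antigen receptor. The genes encode the SERCA pumps of the endoplasmic reticulum (ER) (Atp2a2 and Atp2a3), the PMCA pumps of the plasma membrane (Atp2b1 and Atp2b4), the secretory pathway pump of the Golgi (Atp2c1), the IP3 receptors (Itpr1, Itpr2 and Itpr3) and the ER channel Tmco1. They were taken by gene symbol from a deposited table of 22554 genes, and all 9 were among the 17650 genes that passed a filter on low counts. The 4 libraries came from ILC2s sorted from the lungs of BALB/c mice of 6 weeks and kept overnight in a medium with either the compound 5D or its vehicle. The cytokines IL-33, IL-2 and IL-7 were present in both groups. 5D is a small molecule, dissolved in DMSO, that blocks the Orai channels without regard to isoform. Each group held 2 libraries, made from 10 ng of RNA each by the labels. The mice were wild type. The sort took lineage-negative cells with CD45, ST2 and CD127 at their surface. How many mice gave cells to a library is not given in the sources used here, so the p-values measure the spread between these samples, which may be technical.

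In a resting lymphocyte, SERCA pumps carry calcium from the cytosol into the ER at the cost of ATP, and the ER thereby holds the main releasable store. Receptors that activate phospholipase C produce IP3, which opens the IP3 receptors in the ER membrane and lets the store run out into the cytosol. The emptied store is sensed by STIM proteins, which open the Orai channels in the plasma membrane so that calcium enters from outside. PMCA pumps push calcium out of the cell and so end the signal, the Golgi pump loads calcium and manganese into the secretory pathway, and Tmco1 forms a channel that lets calcium leave an overfilled ER. The comparison of 5D with vehicle asked whether the RNA of this machinery around the Orai channels differed when the channels were blocked.

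The 5 pump genes encode P-type ATPases, which pass the phosphate of ATP to an aspartate within a short run of 5 amino acids that they have in common. The 48 coding bases around that aspartate are shown for 4 of them because the site is common to the pumps, and because reads from related pumps have to be told apart by their sequence. They are given 5′ to 3′ on the coding strand, from GENCODE M21 transcripts on the mouse genome mm10, and the capitals mark the codons of the 5 amino acids. Each stretch lies within 1 coding exon.
Atp2a3: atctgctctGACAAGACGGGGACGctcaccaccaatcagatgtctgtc
Atp2b1: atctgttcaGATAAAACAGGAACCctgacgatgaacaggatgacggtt
Atp2b4: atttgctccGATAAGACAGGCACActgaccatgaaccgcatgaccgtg
Atp2c1: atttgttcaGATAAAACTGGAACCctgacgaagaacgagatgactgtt
The stretch of Atp2a3 lies at chr11:72975597-72975644 on the plus strand, in exon 8, with the aspartate at codon 351. In the PMCA genes the positions are chr10:98999808-98999855 on the plus strand for Atp2b1 (exon 10, codon 475) and chr1:133731789-133731836 on the minus strand for Atp2b4 (exon 9, codon 466). For Atp2c1 the stretch is at chr9:105445254-105445301 on the minus strand, in exon 13, with the aspartate at codon 383.

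Within these 48 bases the PMCA pair Atp2b1 and Atp2b4 differed at 11 positions, of which 3 were among the 15 capitals. Atp2b1 and the Golgi pump gene Atp2c1 differed at 6, of which 1 was in the capitals, and Atp2a3 differed from Atp2b1 at 17. Over the whole aligned coding sequence, Atp2a2 and Atp2a3 were 69.4% identical and Atp2b1 and Atp2b4 71.4%. Identity between the IP3 receptors was 70.3% for Itpr1 and Itpr2, 68.2% for Itpr1 and Itpr3, and 69.2% for Itpr2 and Itpr3. The longest run of identical bases within a pair was 44 nt, between Atp2a2 and Atp2a3, and it was 26 to 32 nt in the PMCA and IP3 receptor pairs. None of the 9 genes had a stretch of at least 150 nt with at least 95% identity in another of the 9.

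The libraries held 23239853 and 20096555 counts with vehicle and 26912708 and 28697265 with 5D. Levels below are in normalized CPM, that is counts scaled to a common library size after upper quartile normalization. Between replicates the coefficient of variation that edgeR shared over genes was 8.51%, and each gene of the 9 was covered by 535 to 16679 counts per library. Relabelling 2 against 2 libraries cannot give an exact permutation p-value below 0.333, so the tests of single genes draw on the pooled dispersion of edgeR. All 14 listed ILC2 markers were detected, with a summed level of 12110 to 13019 normalized CPM, led by Il5 and with Gata3 at 1091 to 1108. Thy1 was the faintest at 8.57 to 13.0, and with 5D 4 of the 14 (28.6%) were lower and 1 (7.14%) higher by an unadjusted p under 0.05, beside 3.84% and 3.5% of all genes tested, and 0 by an adjusted one (edgeR). Markers of other cells summed to 26.03 to 27.7 normalized CPM for T cells, mostly Cd3g with Cd4 at 0, 13.6 to 19.4 for B cells, mostly Cd79b, 0.405 to 1.94 for NK cells and ILC1s and 3.70 to 7.60 for myeloid cells. They summed to 2.25 to 5.55 for mast cells and basophils, with Mcpt4 and Ms4a2 at 0, to 25.5 to 27.8 for epithelial cells, nearly all Epcam with Scgb1a1 and Krt8 at 0, and to 15.7 to 23.9 for endothelial cells and fibroblasts, nearly all Pecam1 with Col3a1 at 0.

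None of the 9 genes reached an adjusted p-value under 0.05 in 5D-treated ILC2s in the quasi-likelihood test of edgeR after Benjamini-Hochberg adjustment, against 17 of all genes tested, which is 0.0963% (0.0283% higher and 0.068% lower). DESeq2's Wald test and limma-voom likewise gave 0 of the 9, although DESeq2 assigned no adjusted p-value to Atp2b4. At an unadjusted p-value under 0.05, the PMCA gene Atp2b4 and the IP3 receptor gene Itpr2 were lower with 5D and 0 genes were higher. Over all genes tested, 7.34% lay below that threshold, 3.84% lower and 3.5% higher. In 6 of the 9 genes the values of the groups did not overlap, 4 of them lower and 2 higher with 5D, where 37.6% of all genes tested did so (18.8% lower and 18.7% higher). The median log2 fold change of the 9 genes was -0.0082 and that of all genes tested was -0.0016. Single genes ran from -0.48 for Atp2b4 to 0.12 for Tmco1, and 5 were below 0 and 4 above. In 4 genes, Atp2a2, Atp2a3, Atp2b1 and Itpr1, the 95% interval of the change lay within 20% in either direction. In bulk RNA of sorted cells, fewer cells of a kind and less RNA per cell cannot be told apart.

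**Figure D1:**
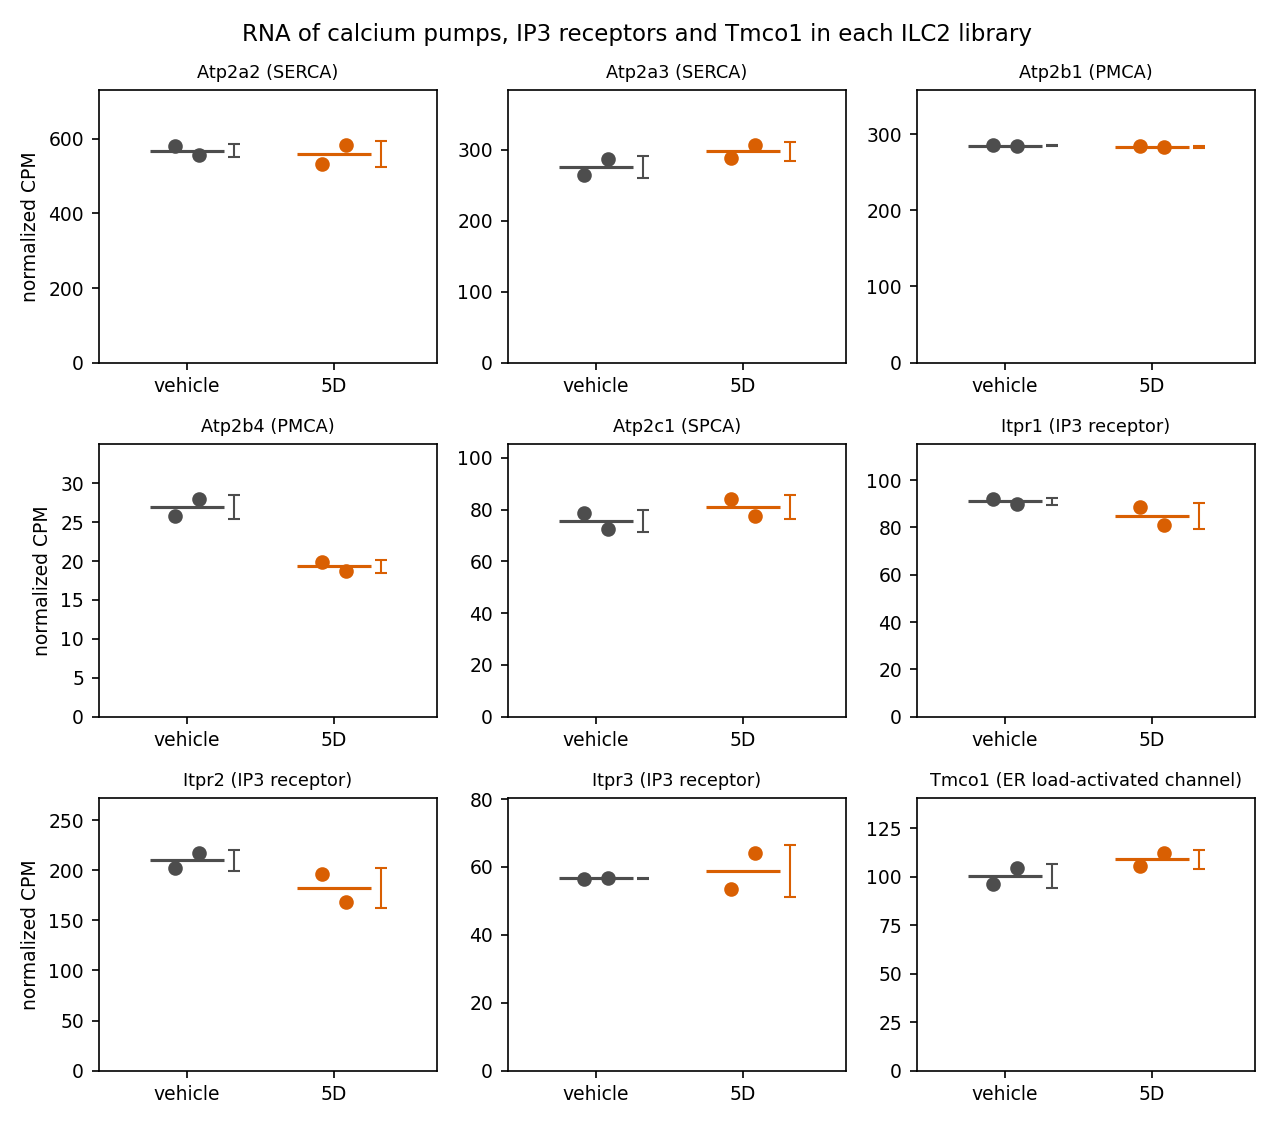
Normalized CPM of each of the 9 genes (y axis, from 0) in the 2 vehicle and the 2 5D libraries (x axis), with points for libraries, a line for the group mean and a bar beside it for the mean ± SD. Relative to the level of the gene the groups stand widest apart in Atp2b4, at 25.8 and 28.0 against 19.9 and 18.7, while the points of Atp2b1 lie on 1 level near 284.

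Atp2b4 encodes PMCA4, a calmodulin-activated pump that returns the cytosol to its resting calcium level. The gene (ENSMUSG00000026463.17) lies on chromosome 1 of mm10 from 133699457 to 133801041 on the minus strand. It had 25.8 and 28.0 normalized CPM with vehicle and 19.9 and 18.7 with 5D, from 600, 560, 540 and 535 counts. Both 5D libraries were below both vehicle libraries, and the gap between the groups was wider than the spread within either. The vehicle mean was 26.9 ± 1.52 and the 5D mean 19.3 ± 0.839 (SD, n = 2 each), a change of -28.2% (95% interval -40.1% to -13.9%). Its log2 fold change of -0.48 (standard error, SE, 0.12) had a p-value of 0.00193 and an adjusted p-value of 0.365 from the quasi-likelihood test of edgeR after Benjamini-Hochberg adjustment. With any 1 library left out the log2 fold change lay between -0.54 and -0.42. It had the fewest counts of the 9 genes.

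Atp2b1 encodes PMCA1, the plasma membrane pump found in most cell types, and it lies on chromosome 10 from 98914406 to 99026143 on the plus strand (ENSMUSG00000019943.10). Its level was 285.7 and 284 normalized CPM with vehicle and 284 and 283 with 5D. The 4 values lay closer together than those of any other of the 9 genes, and although both 5D libraries were the lower ones, the difference was within 1% of the level. The log2 fold change was -0.0082 (SE 0.047, edgeR adjusted p = 0.994), with a 95% interval of the change from -7.40% to 6.77%. Under TMM normalization the sign turned, to 0.0010. Gm29808 carries a stretch of 468 nt that is 98.1% identical to Atp2b1, but it had only 0 to 4 counts per library.

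The make-up of the PMCA pair was followed as the share of each gene in the RNA of both. Per kilobase of exon, Atp2b4 made up 10.1% and 10.9% of the PMCA RNA with vehicle and 8.01% and 7.60% with 5D. The shares of the groups did not overlap, with means of 10.5% ± 0.567 and 7.80% ± 0.287 (SD, n = 2 each). With the longest transcript as the length, Atp2b4 took 5.21% and 5.65% in the vehicle libraries against 4.09% and 3.87% in the 5D libraries, so that the means differed by 1.45 points in place of 2.70. The summed PMCA level per kilobase was 20.9 and 20.96 with vehicle and 20.3 and 20.1 with 5D, and its mean changed by -3.47% with 5D. Both differences had an exact permutation p-value of 0.333, the smallest that 2 against 2 libraries allow, and an adjusted value of 0.556 over the 10 shares and sums compared.

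Itpr2 encodes the type 2 IP3 receptor, the isoform most sensitive to IP3. It lies on chromosome 6 from 146108299 to 146502223 on the minus strand (ENSMUSG00000030287.15). Its libraries were at 203 and 217 normalized CPM with vehicle and at 197 and 168 with 5D. The 5D libraries were both below the vehicle libraries, but 5D replicate 1 lay nearer to the lower vehicle library than to 5D replicate 2. Means were 210.1 ± 10.3 and 182 ± 20.2 (SD, n = 2 each), a change of -13.2% with 5D (95% interval -22.3% to -2.99%). The log2 fold change was -0.20 (SE 0.073), with a p-value of 0.0171 and an adjusted p-value of 0.566 from the quasi-likelihood test of edgeR after Benjamini-Hochberg adjustment. Single libraries moved this value, to -0.097 without 5D replicate 2, to -0.33 without 5D replicate 1, and to -0.26 without vehicle replicate 1.

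Itpr3 encodes the type 3 IP3 receptor, which is prominent at contacts between ER and mitochondria, and lies on chromosome 17 from 27057304 to 27122223 on the plus strand (ENSMUSG00000042644.9). It had 56.4 and 56.8 normalized CPM with vehicle and 53.5 and 64.1 with 5D. The 5D libraries lay on either side of the vehicle libraries, so that the groups overlapped. Its log2 fold change was 0.055 (SE 0.097, edgeR adjusted p = 0.950), with an interval from -10.4% to 20.5%, and it was -0.085 without 5D replicate 2. In that library Itpr3 was at its highest and Itpr2 at its lowest of the 4.

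Itpr1 encodes the type 1 IP3 receptor, best known from Purkinje neurons of the cerebellum. The gene (ENSMUSG00000030102.11) lies on chromosome 6 from 108213096 to 108551109 on the plus strand. Its libraries had 92.0 and 90.0 normalized CPM with vehicle and 88.7 and 80.8 with 5D. Both 5D libraries were lower than both vehicle libraries, 1 of them only just. The log2 fold change was -0.10 (SE 0.073, edgeR adjusted p = 0.825), with a 95% interval from -16.7% to 4.005%. It was -0.18 without 5D replicate 1 and -0.040 without 5D replicate 2. Short exon stretches of 181 and 108 bp overlap the antisense genes Gm44101 and Gm44040, which had at most 6 and 11 counts in a library.

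Within the IP3 receptor family, Itpr2 held the largest share per kilobase of exon in every library, at 54.8% and 56.7% with vehicle and 55.2% and 49.6% with 5D. Itpr3 held 25.1% and 24.3% with vehicle and 24.6% and 31.1% with 5D, and Itpr1 between 19.0% and 20.1% throughout. For all 3 receptors the shares of the groups overlapped. The family sum per kilobase was 24.98 and 25.9 with vehicle and 24.1 and 22.9 with 5D. Its mean changed by -7.77% with 5D, and the groups did not overlap. The exact permutation p-value was 0.333, the smallest possible, and 0.556 after adjustment over the 10 shares and sums compared.

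Among the marker lists of other cells, the summed endothelial and fibroblast level also ran lower with 5D, at 23.9 and 21.3 normalized CPM with vehicle and 19.9 and 15.7 with 5D. This was almost wholly Pecam1, a gene of endothelial cells and of some leukocytes, with a log2 fold change of -0.34 (unadjusted p = 0.0392 and adjusted p = 0.642 in edgeR) and with Col3a1 at 0, and 3 of the 4 listed genes were in the table and 1 was tested. Like Atp2b4, Atp2b1, Itpr2 and Itpr1, Pecam1 was lowest in 5D replicate 2. Its part in the values of Atp2b4, Itpr2 and Itpr1 was not tested. The B cell list had 14.6 and 19.4 normalized CPM with vehicle and 13.6 and 15.3 with 5D, so that its groups overlapped.

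**Figure D2:**
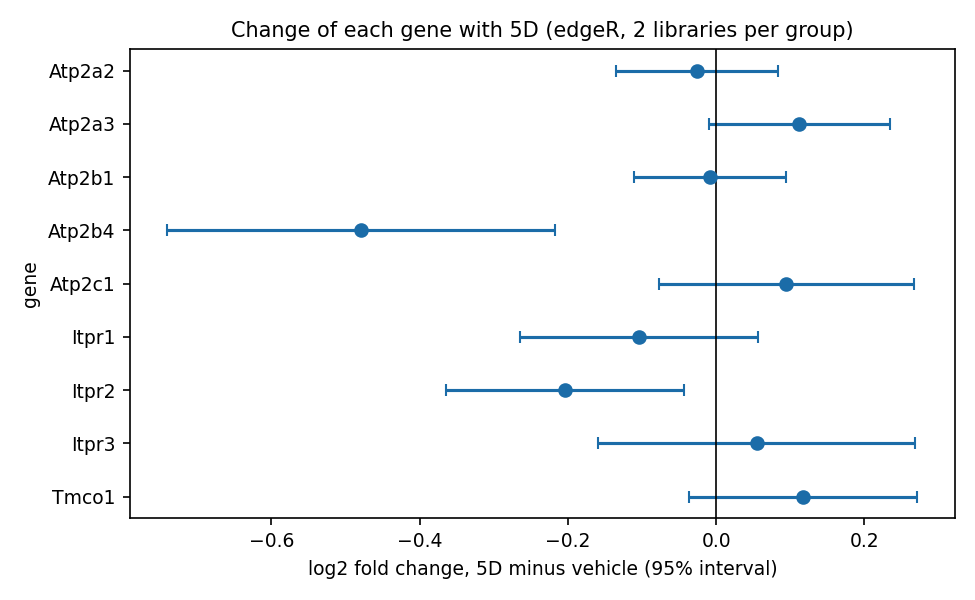
Log2 fold change of 5D minus vehicle (x axis) for each of the 9 genes (y axis), with points for edgeR's estimate and bars for its 95% interval, unadjusted, from 2 libraries per group. The bars of Atp2b4 (-0.74 to -0.22) and Itpr2 (-0.36 to -0.044) lie below 0, and those of the other 7 genes include 0.

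The SERCA pumps were the most abundant of the 9 RNAs per kilobase of exon and did not pass the test in either direction. Atp2a2 encodes SERCA2, whose widely expressed form refills the ER in most cells. It lies on chromosome 5 from 122453513 to 122502225 on the minus strand (ENSMUSG00000029467.15). The libraries had 580.4 and 556 normalized CPM with vehicle and 533 and 583 with 5D, and the values of the groups interleaved, with a 5D library both lowest and highest. The means were 568 ± 17.0 and 558 ± 35.3 (SD, n = 2 each). A log2 fold change of -0.026 (SE 0.050, edgeR adjusted p = 0.957) carried an interval from -8.94% to 6.00%. The sign turned without vehicle replicate 1 (0.0017) and without 5D replicate 1 (0.033). An antisense gene, Gm43361, overlaps 83 bp of its exons and had 232 to 310 counts, and Gm30970 has a near-identical stretch of 362 nt and had 8 to 13 counts.

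Atp2a3 encodes SERCA3, the form typical of blood cells, with a lower affinity for calcium than SERCA2. It lies on chromosome 11 from 72961169 to 72993044 on the plus strand (ENSMUSG00000020788.15). Its level was 264 and 286 normalized CPM with vehicle and 288 and 307 with 5D. Both 5D libraries were above both vehicle libraries, although vehicle replicate 2 and 5D replicate 1 were nearly level. The log2 fold change of 0.11 (SE 0.056) had an unadjusted p-value of 0.0689 and an adjusted p-value of 0.717 from edgeR, with an interval from -0.707% to 17.6%. Its unadjusted p-value was below 0.05 in edgeR under TMM normalization (0.0471), in limma-voom (0.0467), and in edgeR with the replicate number as a block (0.0368). The adjusted p-value stayed at 0.614 or above in each of these. The log2 fold change was 0.17 without vehicle replicate 2, but only 0.052 without vehicle replicate 1 (unadjusted p = 0.448, edgeR) and 0.065 without 5D replicate 2 (unadjusted p = 0.352).

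Per kilobase of exon, Atp2a2 made up 65.6% and 62.8% of the SERCA RNA with vehicle and 61.6% and 62.3% with 5D, and Atp2a3 the rest. The share of Atp2a2 was lower in both 5D libraries, by a mean of 2.23 percentage points, but 5D replicate 2 and vehicle replicate 2 lay within 1 point of each other. For this share the exact permutation p-value was 0.333, the smallest possible, and 0.556 after adjustment over the 10 shares and sums compared. Summed over both pumps the level per kilobase was 145.5 and 145.7 with vehicle and 142 and 154 with 5D, so the SERCA total overlapped between the groups.

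**Figure D3:**
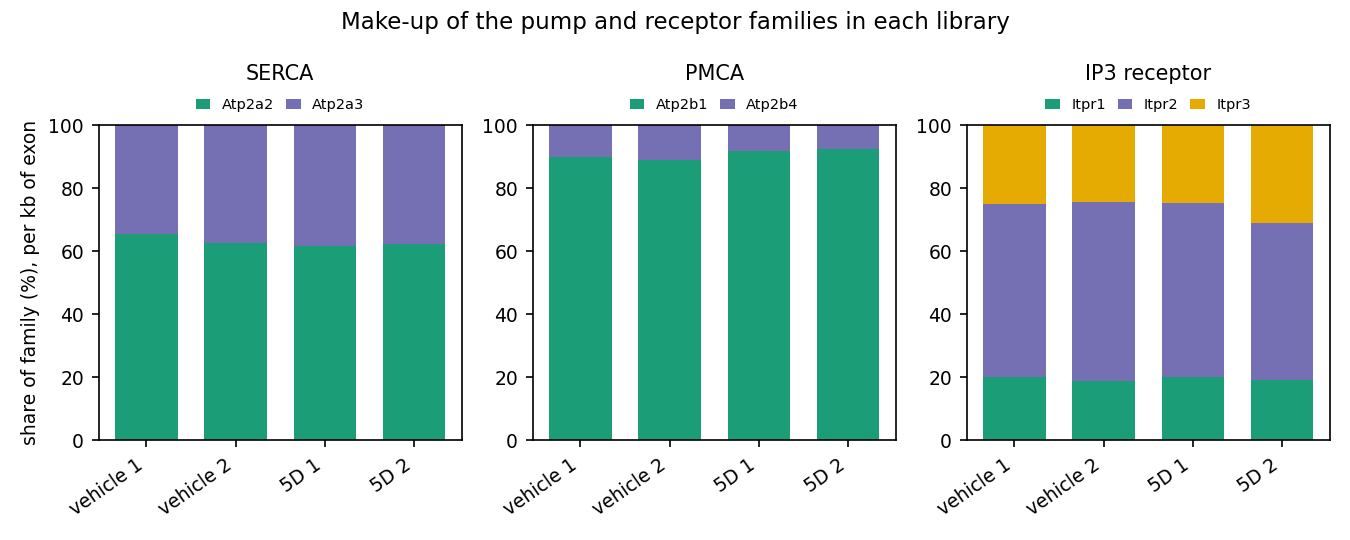
Share of each gene in the RNA of its family (y axis, percent, counts per kilobase of exon) in each of the 4 libraries (x axis), for the SERCA pumps, the PMCA pumps and the IP3 receptors, with 1 stacked bar per library. The Atp2b4 share is 10.1% and 10.9% with vehicle and 8.01% and 7.60% with 5D, and in 5D replicate 2 alone the Itpr3 share reaches 31.1%.

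Atp2c1 encodes SPCA1, the pump that supplies the Golgi with calcium and manganese. It lies on chromosome 9 from 105403539 to 105527319 on the minus strand (ENSMUSG00000032570.17). It had 78.7 and 72.6 normalized CPM with vehicle and 84.1 and 77.6 with 5D, so that the lower 5D library fell between the vehicle libraries. The log2 fold change was 0.095 (SE 0.078, edgeR adjusted p = 0.861), with an interval from -5.17% to 20.3%. It was 0.15 without vehicle replicate 1 or 5D replicate 2, 0.037 without vehicle replicate 2 and 0.032 without 5D replicate 1. Of its exonic bases, 1837, or 19.0%, overlap exons of the antisense gene Aste1, and whether reads were counted by strand is not given in the sources used here. Aste1 had 208 and 194 counts with vehicle and 320 and 339 with 5D (log2 fold change 0.34, adjusted p = 0.687 from edgeR), so part of the value of Atp2c1 cannot be told apart from it.

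Tmco1 encodes a small protein of the ER membrane that assembles into a channel when the store is too full. It lies on chromosome 1 from 167308378 to 167333978 on the plus strand (ENSMUSG00000052428.10). It was measured at 96.2 and 105 normalized CPM with vehicle and at 106 and 112 with 5D. The 5D libraries were both above the vehicle libraries, with less than 1 normalized CPM between vehicle replicate 2 and 5D replicate 1. Its log2 fold change was 0.12 (SE 0.070, edgeR adjusted p = 0.777), with an interval from -2.51% to 20.7%. Single libraries moved this value, to 0.053 without vehicle replicate 1 (unadjusted p = 0.553, edgeR) and to 0.070 without 5D replicate 2 (unadjusted p = 0.451). Without vehicle replicate 2 it was 0.18.

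To compare levels between genes, normalized CPM was divided by the exon length of each gene in kilobases. On this scale Atp2a2 had the highest level, with a mean of 92.6 over the 4 libraries (87.7 to 95.9), and stood in the top 3.86% of 17327 tested genes with a known length. Atp2a3 came next at 54.2 (50.1 to 58.1), followed by Tmco1 at 21.99 (20.2 to 23.6) and Atp2b1 at 18.7 (18.6 to 18.8). Both ER pumps stood above the plasma membrane pump Atp2b1, whose ranges did not meet theirs.

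Lower in the order came Itpr2 at 13.3 (11.4 to 14.7), Atp2c1 at 8.07 (7.49 to 8.67), Itpr3 at 6.40 (5.93 to 7.11) and Itpr1 at 4.80 (4.41 to 5.02). Atp2b4 was last, at 1.89 (1.53 to 2.28), and 54.3% of the genes stood at or above its level. The ranges of neighbours did not overlap anywhere in this order. It did depend on the length used, since with the longest annotated transcript in place of all exons Atp2b1 (39.9) stood above Tmco1 (26.4) and Itpr1 (8.90) above Itpr3 (6.42).

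Of the other pumps, those with counts added little to these families. Atp2a1, the SERCA of skeletal muscle, had 4 and 1 counts with vehicle and 8 and 4 with 5D, and Atp2c2, the second Golgi pump, had at most 1 count in a library. Atp2b2 and Atp2b3 were listed but not found among the 22554 genes, so no level can be given for them. Of 11 listed partners and regulators of the pumps, 8 were tested, and 0 were lower and 0 higher with an unadjusted p under 0.05, with a median log2 fold change of 0.0068. Calm3 encodes calmodulin, the activator of the PMCA pumps. It had 173 and 179 normalized CPM with vehicle and 191 and 189.7 with 5D (log2 fold change 0.11, unadjusted p = 0.0631 from edgeR). Under TMM normalization its unadjusted p-value was 0.0446 (log2 fold change 0.12, edgeR), so the count of 0 higher did not hold there. Pln, the phospholamban that restrains SERCA2 in heart, was singled out after its values were seen and had 0 counts in 3 libraries and 2 in the other.

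Of 9 listed sodium calcium exchangers, which use the sodium gradient to move calcium, 4 were tested. With an unadjusted p under 0.05, 0 were lower and 1 (25%) higher, beside 3.84% and 3.5% of all genes tested. The gene that was higher was Slc8a1, the exchanger of the plasma membrane, which had 9 and 5 counts in the vehicle group against 35 and 24 in the 5D group. Both 5D libraries held more, at a mean of 1.06 ± 0.318 normalized CPM against 0.319 ± 0.0973 (SD, n = 2 each), with a log2 fold change of 1.71 (SE 0.62, unadjusted p = 0.0180 and adjusted p = 0.566 in edgeR). The unadjusted p was 0.0630 in DESeq2's Wald test, 0.0701 without vehicle replicate 2 and 0.140 without 5D replicate 1 in edgeR, so that the call was lost there. Slc8b1, which acts in mitochondria and not at the plasma membrane, had 11.5 and 14.8 normalized CPM with vehicle and 10.9 and 9.72 with 5D (log2 fold change -0.35, unadjusted p = 0.0708). Its log2 fold change was -0.53 without vehicle replicate 1 and -0.16 without vehicle replicate 2. Ryanodine receptors, the other calcium release channels of the ER, were scarce, with 0 to 22 counts of Ryr3 and 10 to 19 of Ryr1 per library.

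All 13 listed partners and regulators of the IP3 receptors were tested, with a median log2 fold change of -0.024. Of these, 1 (7.69%) was lower and 0 higher with an unadjusted p under 0.05, beside 3.84% and 3.5% of all genes tested. Erp44, an ER protein that inhibits the type 1 receptor from the luminal side, had 131 and 129.7 normalized CPM with vehicle and 118 and 116 with 5D. Its groups were well apart, with a log2 fold change of -0.15 (SE 0.060, unadjusted p = 0.0288 and adjusted p = 0.621 in edgeR), but with any 1 library left out the unadjusted p was 0.0567 to 0.105. Fkbp1a, which encodes a binding protein of calcium release channels, had a log2 fold change of -0.093 (unadjusted p = 0.0545 in edgeR and 0.0360 in limma-voom). Of 5 listed enzymes that act on IP3 or other inositol phosphates, 4 were tested and 0 passed in either direction. The IP3 kinase genes Itpkb and Itpkc had log2 fold changes of -0.29 and 0.32 (unadjusted p = 0.0736 and 0.123 from edgeR). Both values moved with single libraries. That of Itpkb ran from -0.47 without vehicle replicate 1 to -0.097 without vehicle replicate 2. That of Itpkc ran from 0.12 without 5D replicate 2 to 0.49 without 5D replicate 1.

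Among 8 tested genes of ER leak and counter-ion flow, 7 had a log2 fold change below 0 and 1 above. Their median was -0.11, and that of all genes tested was -0.0016. Of the 8, 1 (12.5%) was lower and 0 were higher with an unadjusted p under 0.05, beside 3.84% and 3.5% of all genes tested. It was Sec61a1, the pore of the ER translocon, through which calcium can also leak. Sec61a1 had 572 and 564 normalized CPM with vehicle and 527 and 531 with 5D, without overlap between the groups (log2 fold change -0.10, SE 0.041, unadjusted p = 0.0280 and adjusted p = 0.612 in edgeR), and with any 1 library left out the unadjusted p was 0.0561 to 0.110. Tmem38a, a potassium channel of the ER that balances the charge of released calcium, had 45 to 79 counts. Its log2 fold change was -0.71 (unadjusted p = 0.0577 in edgeR and 0.146 in DESeq2's Wald test). With any 1 library left out the log2 fold change ran from -0.94 to -0.50. In 6 of the 8 genes the groups did not overlap, 5 lower and 1 higher with 5D, beside 18.8% lower and 18.7% higher among all genes tested.

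The proteins that buffer calcium inside the ER and Golgi were measured through 12 of 14 listed genes, of which 11 had a log2 fold change below 0 and 1 above. Their median was -0.038, and that of all genes tested was -0.0016. Without overlap between the groups, 5 were lower and 1 higher with 5D, beside 18.8% and 18.7% of all genes tested. Of the 12, 1 (8.33%) was lower and 0 were higher with an unadjusted p under 0.05, beside 3.84% and 3.5% of all genes tested. This was Sdf4, which encodes the Golgi calcium binder Cab45, with 307 and 318 normalized CPM with vehicle and 294 and 286 with 5D (log2 fold change -0.11, unadjusted p = 0.0451 and adjusted p = 0.662 in edgeR). Its unadjusted p was 0.0597 under TMM normalization and 0.0411 to 0.210 with 1 library left out, under 0.05 only without vehicle replicate 1. Rcn2, another binder, had a log2 fold change of -0.14 (unadjusted p = 0.0684). The main store buffer Calr and the chaperone Hspa5, named after their values were seen, had log2 fold changes of -0.052 and -0.0099, at 1114 to 1176 and 1277 to 1334 normalized CPM. Over all 8 lists 52 of 68 genes were tested and their log2 fold changes had a median of -0.037, while 3 were lower (5.77%) and 1 higher (1.92%) with an unadjusted p under 0.05, beside 3.84% and 3.5% of all genes tested. At an adjusted p-value under 0.05 the count was 0 of 52 with edgeR and limma-voom, and 0 with DESeq2's Wald test, which assigned no adjusted p-value to 21 of the 52.

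**Figure D4:**
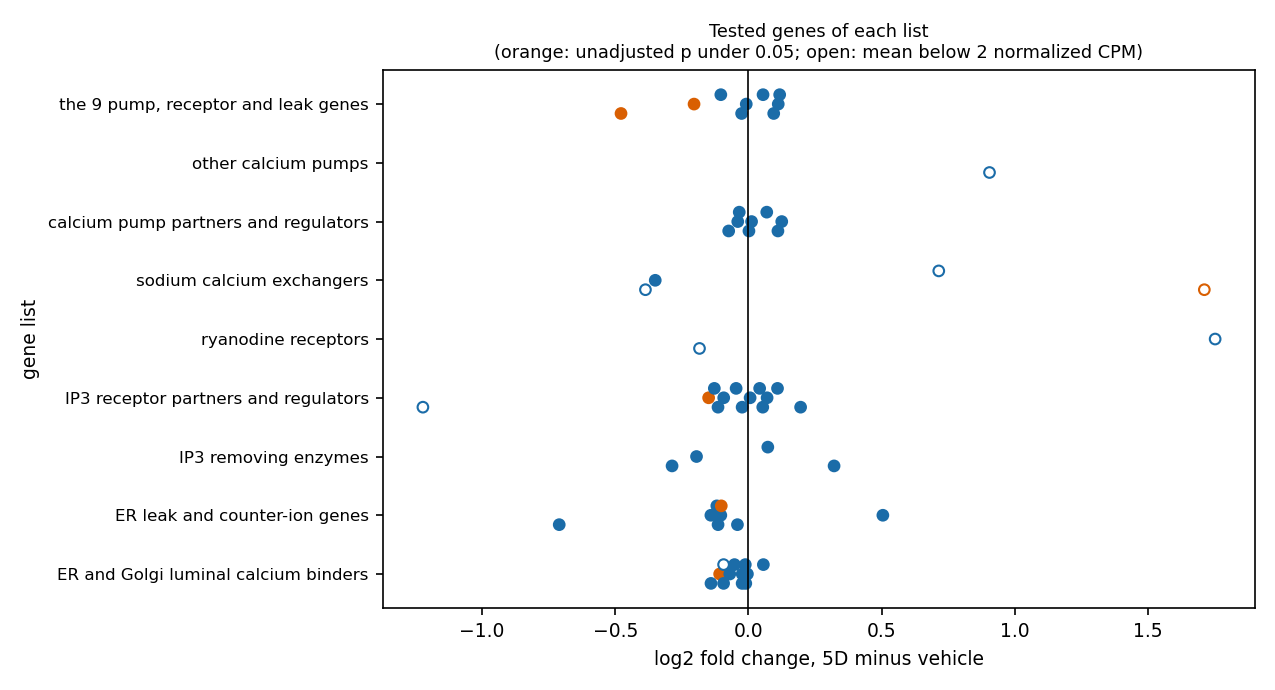
Log2 fold change of 5D minus vehicle (x axis) of each tested gene, in rows for the 9 genes and for each list of related genes (y axis), with orange for an unadjusted p-value under 0.05 and open circles for a mean below 2 normalized CPM. Atp2b4 and Itpr2 are the orange points among the 9 genes, most points lie near 0, and the widest values belong to weakly expressed genes such as Slc8a1 at 1.71.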

How the data were processed

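RNA was measured in 2 vehicle and 2 5D libraries of sorted ILC2s. The authors made cDNA with a low-input kit (SMARTer Ultra Low Input), sequenced it on a Illumina NextSeq system, aligned it with STAR 2.6.1 (CASAVA 1.8.2 is also named in the processing notes) to mm10 and quantified it in Partek against GENCODE M21. They deposited estimated counts per gene before normalization, of which 59.3% to 63.0% per library were whole within 0.01. A test on whole-number counts had been planned, so the values were rounded first. The labels give an overnight culture and nanograms of input RNA, and the paper gives a longer culture and picograms.

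The 9 genes and all lists were chosen with earlier results of these data known. Upper quartile factors were taken over all 22554 genes. Tested were the 17650 genes whose normalized counts had a mean of 1 or more and a sum of 10 or more (4904 were left out), by the quasi-likelihood test of edgeR (edgeR 4.0.16, limma 3.58.1, DESeq2 1.42.0, R 4.3.3), two-sided, with no covariates and Benjamini-Hochberg adjustment over the genes tested. The standard error is the absolute log2 fold change over the root of the F statistic, and gave the 95% intervals. Shares within families were compared by a two-sided exact permutation test over libraries. Named are the 9 genes, of each list any gene with an adjusted p-value under 0.05 and otherwise the 2 with the smallest p-value, and of the marker lists those at 0 and the most abundant. Replicate libraries differed beyond counting error, and were counted as separate samples. Lengths are unions of exons in GENCODE M21. BLAST 2.17.0 searched for near-identical genes (at least 150 nt at 95% identity). Python 3.11.15 and matplotlib 3.10.9 made the figures. The scripts were first tested on simulated counts. Alternatives were TMM, the size factors or the Wald test of DESeq2, limma-voom, filterByExpr or no filter, a replicate block, other gene lengths, and leaving out each library. For 15 genes of the lists (of each list the 2 with the smallest p-value, or the 1 tested) and for the counts over the lists the same alternatives were added after seeing the data. Values of 1 listed gene and 1 sequence are not reported here.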

Additional observations from a re-analysis of the deposited data

How the results depend on the processing

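Among the 9 genes, 0 passed an adjusted p-value of 0.05 under the 7 alternatives that kept all libraries, and their median log2 fold change of -0.0082 moved by less than the spread between replicates. Atp2b4 stayed between -0.48 and -0.47 and Itpr2 between -0.21 and -0.19 on the log2 scale, both below an unadjusted p-value of 0.05. Of the 9 genes, 0 were higher with an unadjusted p under 0.05, and 1 (Atp2a3) was under TMM, limma-voom and the replicate block. TMM also turned the sign of Atp2b1, to 0.0010. Over all genes, the 5 higher and 12 lower genes called after adjustment became 17 and 43 with DESeq2's Wald test, 9 and 23 with limma-voom, 11 and 35 without a filter, and 9 and 32 with the replicate block. DESeq2 gave 369 higher and 408 lower at an unadjusted p-value under 0.05 in place of 618 and 678. The numbers did not pair the libraries (correlation of their deviations -0.00299). With the replicate block, 649 genes were higher and 707 lower at an unadjusted p-value under 0.05 in edgeR.

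Leaving out a library leaves a group of 1, which is assumed to vary like the other. Without a vehicle library, edgeR's p-values were those of a normal distribution, as if the spread were known exactly. The fit to all libraries allowed for that uncertainty, so p-values and counts of calls are not comparable between the fits. The genes called after adjustment then lay between 3 (without 5D replicate 2) and 73 higher and between 12 and 107 lower, the largest without vehicle replicate 1, and were 32 and 47 without vehicle replicate 2. At an unadjusted p-value the higher genes numbered 380 (without 5D replicate 2) to 1034 (without vehicle replicate 1) and the lower ones 580 to 861. The median log2 fold change of the 9 genes lay between -0.040 and 0.032. Sign turned within the ranges of Atp2a2 (-0.093 to 0.033, and 0.0017 without vehicle replicate 1), Itpr3 (-0.085 to 0.18) and, among the 15 listed genes recomputed, Ryr1 (-0.60 to 0.37, and 0.14 without 5D replicate 2). Of the listed genes, 3 were lower and 1 higher by unadjusted p in edgeR. These counts became 2 and 3 under TMM and 4 and 2 with limma-voom. They were 3 and 2 with the replicate block and 3 and 0 with DESeq2's Wald test. They also changed when a library was left out. The cause was not tested.

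Shares with vehicle moved with the length used. Per longest transcript they were 94.6% for Atp2b1, 27.5% for Itpr1, 53.7% for Itpr2 and 18.8% for Itpr3, and with no division by length 91.4%, 25.5%, 58.7% and 15.8%, with 67.4% for Atp2a2, beside 89.5%, 19.5%, 55.8%, 24.7% and 64.2% per kilobase of exon. Leaving out a vehicle library gave 62.8% to 65.6% for Atp2a2, 89.1% to 89.9% for Atp2b1, 19.0% to 20.1% for Itpr1, 54.8% to 56.7% for Itpr2 and 24.3% to 25.1% for Itpr3. With 2 libraries per group, a change of the size seen in Itpr1 or Tmco1 could not be told from the spread between libraries.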
